A study of Neurospora crassa with 112 samples.

Results

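The genes described here encode the MAK-2 mitogen-activated protein (MAP) kinase pathway of *Neurospora crassa* and proteins that act with or after it in cell fusion. They were chosen by their known roles, though with earlier results of these data known. The genes are *nrc-1* (NCU06182), *mek-2* (NCU04612), *mak-2* (NCU02393), *ste-50* (NCU00455), *ham-5* (NCU01789), *ras-2* (NCU03616), *pp-1* (NCU00340), *adv-1* (NCU07392), *so* (NCU02794) and *prm-1* (NCU09337). These are 10 genes beside a table of 9733, and 9 of the 10 have a row in it. No value can be given for *ham-5*, whose product is a scaffold of the cascade, since neither its present locus number nor its 2 older ones has a row.

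RNA of 112 haploid strains, each grown for 16 h as a mycelium on cellophane over Bird medium, went into 1 polyadenylated RNA library for each strain, to find how wild isolates differ. By name the strains are 72 JW strains, 10 D strains and 30 numbered strains, the last of which include 2489, the laboratory strain whose genome is the reference. All were grown alike, with no treatment and no engineered allele, and none has a replicate culture, which means that the spread between libraries joins that of strains, cultures and library preparation. The study also scored germling communication in 24 of the strains and classed them as poorly or avidly communicating, without stating how many fell in each class. Its rule, applied here to the mean frequencies it lists, gave 6 poorly and 18 avidly communicating strains, which may differ from its own classes. The scoring was of germlings, while the RNA is of mycelia.

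Values are in RPKM, reads scaled by gene length and library total. Levels of different genes are set beside each other on this scale, though libraries still differed by gene length, as given below. Columns of 4 strain pairs (4448 and D110, 4449 and D111, 4453 and D112, 4500 and D119) held identical values for 87.1% to 89.5% of genes above 0, against 0% in any other pair, and were counted as 1 library each, which left 108 libraries (72 JW, 36 D or numbered). Library totals recovered from the values were 4174767 to 30748165 reads, with medians of 19835136 in JW and 11861308 in D or numbered libraries. The 9 genes had from 76 reads (*prm-1*) to 15201 reads (*mak-2*) in a library. Libraries of 5 strains stood somewhat apart, with a median correlation of 0.88 to 0.91 with the others, against a median of 0.95 over all libraries. Libraries also differed in how long and short genes stood to each other: the length contrast, the median log2 deviation of the 20% longest genes (at least 2253 bp of scaled length) minus that of the 20% shortest (up to 744 bp), ran between -0.49 in JW262 and 0.54 in 2489. All 9 conidiation markers (con-6, con-8, con-10, con-13, eas, fl, csp-1, csp-2 and acon-3) had reads in some libraries, and their summed level was 131 to 21320 RPKM in JW libraries and 254 to 125600 RPKM in D or numbered libraries. In such bulk RNA, fewer cells of a type and less RNA per cell cannot be told apart.

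In this pathway the MAP kinase kinase kinase NRC-1 phosphorylates the MAP kinase kinase MEK-2, which phosphorylates the MAP kinase MAK-2; the cascade is the counterpart of the yeast pheromone response cascade. STE-50 is an adaptor that binds the uppermost kinase, HAM-5 holds the kinases together, and RAS-2 is a small GTPase of the Ras family. PP-1, the homolog of yeast Ste12, is a transcription factor downstream of the cascade, and ADV-1 is a zinc cluster transcription factor needed for fusion and sexual development. SO (SOFT) is a cytoplasmic protein that is recruited to the tips of communicating germlings in alternation with MAK-2, and PRM-1 is a membrane protein that acts when the plasma membranes merge.

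All 9 measured genes were expressed in every library, at levels that spanned more than an order of magnitude between genes. *mak-2* had the highest level of the 9 in all 108 libraries, with 164 RPKM in its lowest library (2489), a median of 429 RPKM and 592 RPKM in its highest (JW96). *mek-2* followed with 76.1, 125 and 174 RPKM (lowest, median and highest library), in 1693 at the low end and 4476 at the high end. *nrc-1*, at the top of the cascade, had 14.4, 31.7 and 55.9 RPKM. The 3 kinases thus stood in the reverse of their order in the cascade. *mak-2* was above *mek-2* and *mek-2* above *nrc-1* in 108 of 108 libraries. The level also fell as the scaled length rose (1059 bp for *mak-2*, 1536 bp for *mek-2* and 2739 bp for *nrc-1*). The part of length in this order was not tested. The median ratio of *mak-2* to *mek-2* was 3.41 (2.11 in 2489 to 4.78 in JW228), and that of *mek-2* to *nrc-1* was 4.01 (1.61 in 2489 to 7.91 in JW159). The adaptor *ste-50*, with 36.8 (JW262), 55.3 and 75.9 RPKM (4496), also lay above *nrc-1* in 108 of 108 libraries, by a median ratio of 1.73.

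**Figure D1:**
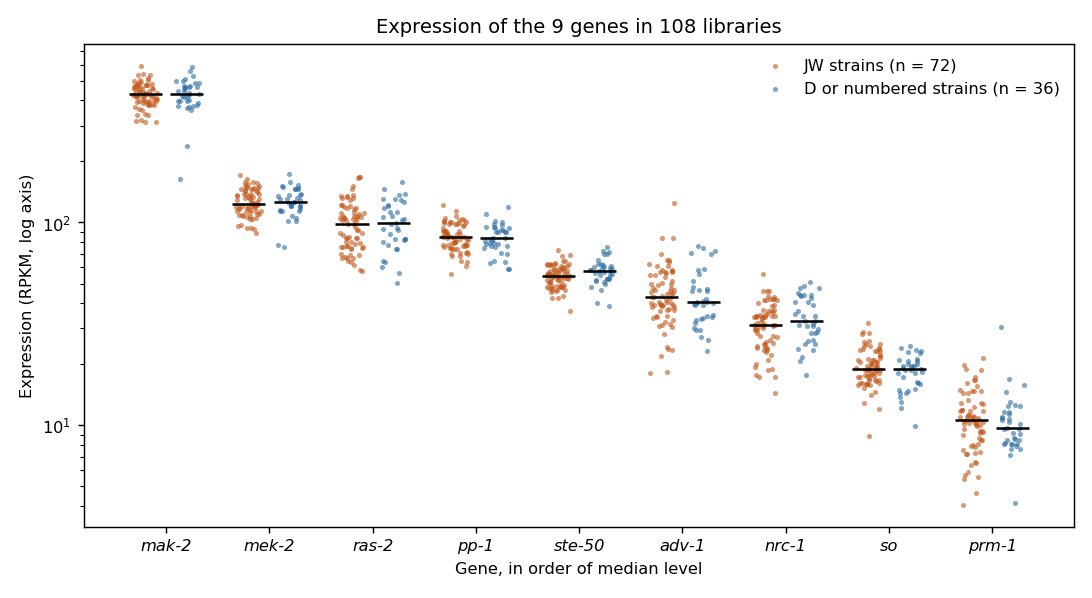
Expression of the 9 genes in RPKM on a log axis, 1 point per library, JW libraries (n = 72) left of D or numbered libraries (n = 36), with the median of each as a line. *mak-2* lies highest in every library, *prm-1* is lowest by median, and the points of both strain series overlap for every gene.

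Of the remaining genes, *ras-2* had 50.5, 98.5 and 169 RPKM in its lowest (2489), median and highest (JW210) library. The transcription factor gene *pp-1* had 55.98 (JW262), 84.4 and 122 RPKM (JW160). The other transcription factor gene, *adv-1*, had 18.1 (JW9), 41.2 and 125 RPKM (JW70), and lay below *pp-1* in 106 libraries. *so* had 8.84 (JW169), 18.9 and 31.8 RPKM (JW7). *prm-1*, the only gene of the set whose product acts at the membrane merger itself, had the lowest median, with 4.05 (JW256), 10.3 and 30.4 RPKM (4494).

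Neighbours in this order were compared within each library on the log2(RPKM + 1) scale. The steps between *mak-2* and *mek-2* (mean difference 1.75 ± 0.23, SD, n = 108), between *pp-1* and *ste-50* (0.60 ± 0.18), between *nrc-1* and *so* (0.70 ± 0.45) and between *so* and *prm-1* (0.82 ± 0.52) were larger than 1 SD over libraries. The other 4 steps were not. *mek-2* exceeded *ras-2* in 90 libraries (0.38 ± 0.44), *ras-2* exceeded *pp-1* in 75 (0.19 ± 0.41), *ste-50* exceeded *adv-1* in 92 (0.36 ± 0.40) and *adv-1* exceeded *nrc-1* in 94 (0.44 ± 0.46). The order within each of these 4 pairs thus changed in some libraries, though *ste-50* lay above *nrc-1* in 108 of 108. Of the larger steps, those from *mak-2* to *mek-2* and from *pp-1* to *ste-50* held in 108 libraries. *nrc-1* exceeded *so* in 100 libraries and *so* exceeded *prm-1* in 101, so these places were not fixed in every library either.

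Variation between strains was small for the adaptor, the 2 lower kinases and *pp-1*, and larger for *ras-2*, *nrc-1*, *prm-1* and *adv-1*. The SD of log2(RPKM + 1) over the 108 libraries was 0.19 for *ste-50*, above that of only 4.21% of the 7985 genes that averaged 1 RPKM or more. It was 0.22 for *pp-1*, 0.23 for *mek-2* and 0.24 for *mak-2*, and between 11.4% and 16.1% of genes varied less than these did. For *so* it was 0.29, above that of 29.6% of genes. At the other end stood *nrc-1* (0.39, above 51.4%), *ras-2* (0.39, above 52.3%), *prm-1* (0.44, above 61.2%) and *adv-1* (0.46, above 64.1%). The median over all genes was 0.38. Counting error alone would give an SD of 0.018 (*mak-2*) to 0.072 (*prm-1*), at most 4.87% of the variance (*ste-50*).

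A few strains stood at the ends of several genes at once. JW262 was among the 5 lowest libraries for 6 of the 9 genes and was the lowest of all for *nrc-1* (14.4 RPKM), *ste-50* (36.8 RPKM) and *pp-1* (55.98 RPKM). It also had the lowest length contrast of all libraries, -0.49. The laboratory strain 2489 had the lowest *mak-2* (164 RPKM) and *ras-2* (50.5 RPKM) of the 108 libraries and the second lowest *mek-2* (77.8 RPKM), while its *nrc-1* (48.4 RPKM) was the third highest. On the log2 scale its *mak-2* deviated from the mean of all libraries by -5.62 SD. Strain 1693 had the lowest *mek-2* (76.1 RPKM) and the second lowest *mak-2* (238 RPKM), but its *ras-2* (130 RPKM) was above the median. The 2489 library held 5132423 reads and had the highest length contrast, 0.54, while the 1693 library held 8497045 reads with a contrast of 0.038. Their part in these levels was not tested. JW70 had the highest *adv-1* (125 RPKM) and *nrc-1* (55.9 RPKM). The highest *prm-1* (30.4 RPKM) was that of strain 4494, and the highest in the other 107 libraries was 21.5 RPKM.

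The first comparison asked whether the level of the pathway in mycelia differed between poorly and avidly communicating strains. It did not differ beyond the spread between libraries for any of the 9 genes, and the values of the 2 classes overlapped for all of them. The classes were not balanced over the strain series, with 5 of 6 poor and 9 of 17 avid libraries from JW strains. With the merged columns, 6 poorly communicating libraries (4455, JW196, JW222, JW228, JW238 and JW75) and 17 avidly communicating libraries entered. limma called 0 of the 9 genes at an adjusted p of 0.05, beside 0.0% of all 7966 genes tested. At an unadjusted p of 0.05 it was 0 of the 9 genes beside 4.02% of all genes, and voom on recovered reads also called 0 genes.

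*nrc-1* had a mean of 34.04 ± 9.48 RPKM (SD, n = 6) in poorly communicating strains and of 34.5 ± 9.30 RPKM (SD, n = 17) in avidly communicating strains. *mek-2* had 120 ± 16.6 RPKM in poorly and 124 ± 18.9 RPKM in avidly communicating strains. *mak-2* had 417 ± 59.5 RPKM in poorly and 422 ± 77.2 RPKM in avidly communicating strains, with the lowest avid library, 2489, at 164 RPKM. The differences, poor minus avid on the log2(RPKM + 1) scale, were -0.02 for *nrc-1* (95% confidence interval -0.41 to 0.37), -0.05 for *mek-2* (-0.28 to 0.18) and 0.01 for *mak-2* (-0.31 to 0.32). Exact permutation tests over all 100947 divisions of the libraries gave two-sided p = 0.920, 0.660 and 0.973 for these genes. For *mak-2*, leaving out 2489 turned the difference to -0.077, which also did not pass the test. Among JW strains alone (5 against 9 libraries) the differences were -0.16 for *nrc-1*, -0.19 for *mek-2* and -0.07 for *mak-2*, and outside the kinases -0.21 for *pp-1* and 0.26 for *adv-1*, none past the test (limma adjusted p of at least 0.90).

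The adaptor *ste-50* had 48.3, 56.3 and 59.2 RPKM (lowest, median and highest) in poorly communicating strains and 47.97, 57.3 and 73.0 RPKM in avidly communicating strains. The 6 poor libraries all lay within the range of the 17 avid ones, 3 of them above the avid median, and the difference was -0.10 (-0.29 to 0.08, exact permutation p = 0.233). *ras-2* had 87.2, 107 and 132 RPKM in poorly and 50.5, 105 and 159 RPKM in avidly communicating strains (difference 0.12, -0.23 to 0.48, exact permutation p = 0.496). Among the transcription factor genes, *pp-1* had 70.5, 80.8 and 110 RPKM in poorly and 63.4, 90.0 and 115 RPKM in avidly communicating strains (difference -0.07, -0.29 to 0.16, exact permutation p = 0.534). *adv-1* had 33.9, 50.8 and 84.2 RPKM in poorly and 32.2, 48.1 and 76.8 RPKM in avidly communicating strains (difference 0.07, -0.30 to 0.45, exact permutation p = 0.691). JW75 alone, at 84.2 RPKM, lay outside the avid range of *adv-1*.

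*so* and *prm-1* had the smallest p of the 9 genes. *so* had 19.2, 22.6 and 23.9 RPKM in poorly communicating strains, against 12.9, 19.7 and 25.2 RPKM in avidly communicating strains. All 6 poor libraries lay within the avid range and 4 of them above the avid median, with a difference of 0.17 (-0.06 to 0.39, exact permutation p = 0.121, limma adjusted p = 0.9999). The *so* difference was 0.22 with median centring (limma unadjusted p = 0.041) and 0.22 with quantile normalization (0.049). In these settings 311 and 289 of all 7966 genes were under 0.05. Among JW strains alone it was 0.24 (limma unadjusted p = 0.078), and none of the 3 passed (limma adjusted p of at least 0.90). *prm-1* had 7.23, 11.5 and 19.9 RPKM in poorly communicating strains, against 4.14, 9.70 and 14.7 RPKM in avidly communicating strains. JW228 (19.9 RPKM) and JW75 (14.96 RPKM) exceeded every avid library, the other 4 poor libraries did not, and the difference was 0.25 (-0.13 to 0.63, exact permutation p = 0.199, limma adjusted p = 0.9999). The *prm-1* difference was 0.11 without JW228, 0.38 without JW222 and 0.028 among JW strains alone. The intervals leave room for differences of up to about 0.6 on the log2 scale, and a p above the threshold does not show equal levels.

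**Figure D2:**
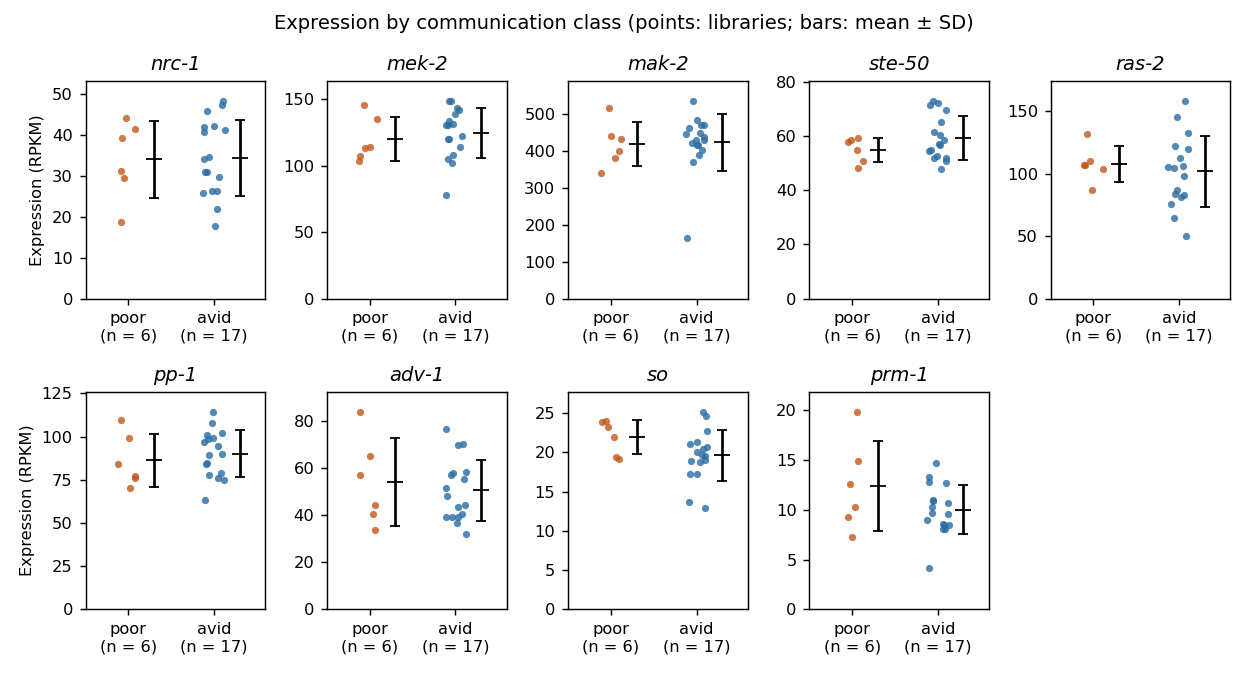
Expression in RPKM of each of the 9 genes in the poorly (n = 6, left) and avidly (n = 17, right) communicating libraries, 1 point per library, with mean ± SD. The classes overlap in every panel, and the low avid point of *mak-2* at 164 RPKM is strain 2489.

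The second comparison set the 72 JW libraries against the 36 D or numbered libraries. The strain names form JW, D and numbered series, and the D and numbered series were pooled here. None of the 9 genes passed the test here either. limma called 0 of 9 at an adjusted p of 0.05, beside 2.24% of all 7985 genes (93 higher and 86 lower in JW), and 0 of 9 at an unadjusted p of 0.05, beside 18.9% of all genes. voom on recovered reads called 108 genes, 0 of them among the 9. The largest differences were those of *nrc-1* and *so*. *nrc-1* had 14.4, 31.4 and 55.9 RPKM in JW libraries and 17.7, 32.7 and 51.2 RPKM in D or numbered libraries (lowest, median and highest), a difference of -0.12 (-0.27 to 0.04, permutation p = 0.135, limma adjusted p = 0.418). *so* had 8.84, 19.01 and 31.8 RPKM in JW and 9.96, 18.9 and 24.6 RPKM in D or numbered libraries, a difference of 0.09 (-0.02 to 0.21, permutation p = 0.1199, limma adjusted p = 0.398). *ste-50* had the smallest p. Its level was 36.8, 54.7 and 73.0 RPKM in JW and 38.6, 57.8 and 75.9 RPKM in D or numbered libraries, with 49 of 72 JW libraries below the D or numbered median and a difference of -0.07 (-0.15 to 0.01, permutation p = 0.0711, limma adjusted p = 0.322). For *mek-2*, *mak-2*, *ras-2*, *pp-1*, *adv-1* and *prm-1* the differences lay between -0.01 and 0.04. The order of these differences changed when depth or length contrast entered as a covariate. The median length contrast was 0.014 in JW (-0.49 to 0.35) and 0.048 in D or numbered libraries (-0.45 to 0.54). Whether the series differ in it, and its part in these differences, was not tested. With the log2 library total as covariate the difference was -0.018 for *nrc-1*, 0.17 for *so* and -0.047 for *ste-50*. With the length contrast as covariate it was -0.015 for *nrc-1*, 0.14 for *so*, -0.016 for *ste-50*, 0.14 for *adv-1*, 0.082 for *pp-1* and 0.088 for *prm-1*, and none of the 9 passed under either (smallest limma adjusted p = 0.144, *so*). Before adjustment, *so* had limma p = 0.0079 with the library total and 0.012 with the length contrast, where *pp-1* had 0.030. In these fits 934 and 1488 of 7985 genes were under 0.05. *ste-50* had unadjusted limma p = 0.043 with median centring, 0.034 with quantile normalization and 0.024 with each column its own library. There 1614, 1736 and 1652 genes were under 0.05.

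**Figure D3:**
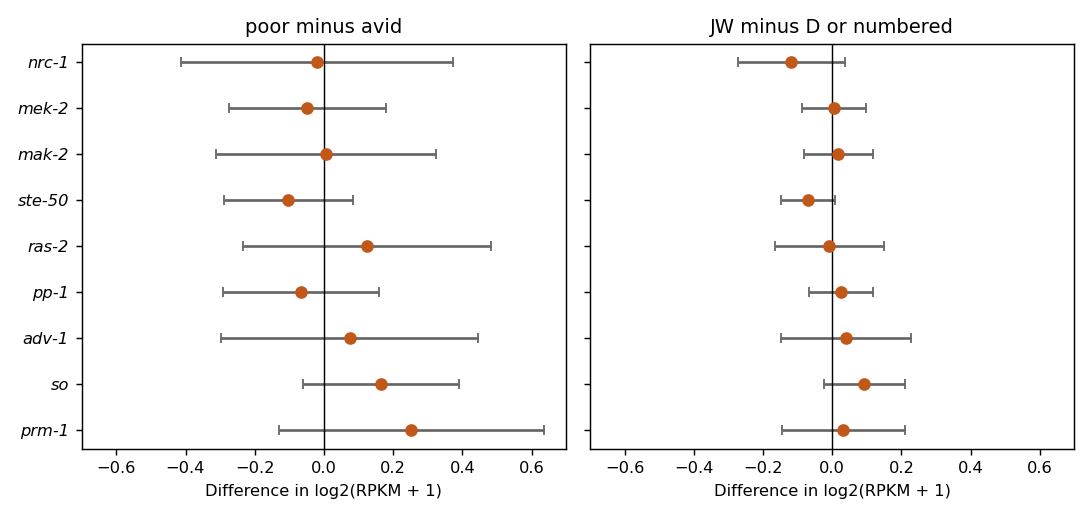
Differences in log2(RPKM + 1) with 95% confidence intervals from limma, poor minus avid on the left and JW minus D or numbered on the right, for the 9 genes in the order of their roles. Every interval includes 0, and those of the larger comparison on the right are narrower.

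Across strains, the levels of some of the genes were correlated. Pearson's r of log2(RPKM + 1) over the 108 libraries was computed for all 36 pairs of the 9 genes, with 100000 permutations and Benjamini-Hochberg adjustment over the pairs. It passed the threshold in 20 pairs, all positive, at an r of at least 0.24. That is 55.6% of the pairs, where 20.2% of the r values of all other genes with the same members were as large. An r of this size was thus common in these libraries, and the share differed between members, from 9.62% of other genes with *mek-2* to 34.9% with *ste-50*.

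The closest group was formed by *nrc-1*, *ste-50* and *pp-1*, the top kinase, its adaptor and the transcription factor. *nrc-1* and *ste-50* had r = 0.64 (Spearman's rho = 0.61, permutation p = 1e-05, the smallest the permutations can give, adjusted p = 4.5e-05). *ste-50* and *pp-1* had r = 0.63 (rho = 0.64) and *nrc-1* and *pp-1* had r = 0.60 (rho = 0.61), with the same p and adjusted p. In each of these pairs r exceeded that of more than 95% of all genes with either member. After removal of JW262 and the next most extreme library of the first gene (by distance from its median), the 3 values were 0.61, 0.58 and 0.57. They held within JW (0.70, 0.70 and 0.65) and within D or numbered libraries (0.52, 0.57 and 0.57). *adv-1* joined this group more loosely, with r = 0.53 to *ste-50*, 0.48 to *pp-1* and 0.42 to *nrc-1* (adjusted permutation p = 4.5e-05, 4.5e-05 and 0.00012).

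These same genes followed the length contrast of the library. Its r was 0.72 with *ste-50*, 0.68 with *nrc-1*, 0.61 with *pp-1* and 0.53 with *adv-1*, and lower with *so* (0.37), *prm-1* (0.31), *mek-2* (0.14), *mak-2* (0.05) and *ras-2* (0.04). Given the length contrast, the partial r fell to 0.30 between *nrc-1* and *ste-50*, 0.36 between *ste-50* and *pp-1* and 0.33 between *nrc-1* and *pp-1*, which still passed (adjusted permutation p = 0.0057, 9e-04 and 0.0024). For *adv-1* it was 0.25 with *ste-50* and 0.23 with *pp-1*, both past the threshold, and 0.09 with *nrc-1*, which no longer passed (adjusted permutation p = 0.486). Over all pairs, 14 of 36 passed given the length contrast, which is 38.9%, beside 12.5% of the partial r values of other genes at that size. All 14 were among the 20 above. The longer genes by scaled length are *nrc-1* (2739 bp), *pp-1* (2169 bp), *adv-1* (2091 bp), *prm-1* (2295 bp) and *so* (3915 bp). The shorter ones are *ste-50* (1443 bp), *mek-2* (1536 bp), *mak-2* (1059 bp) and *ras-2* (690 bp). The r with the contrast was 0.31 to 0.68 among the longer genes. Among the shorter ones it was 0.04 to 0.14, except for *ste-50* (0.72). The part of gene length in these values was not tested.

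**Figure D4:**
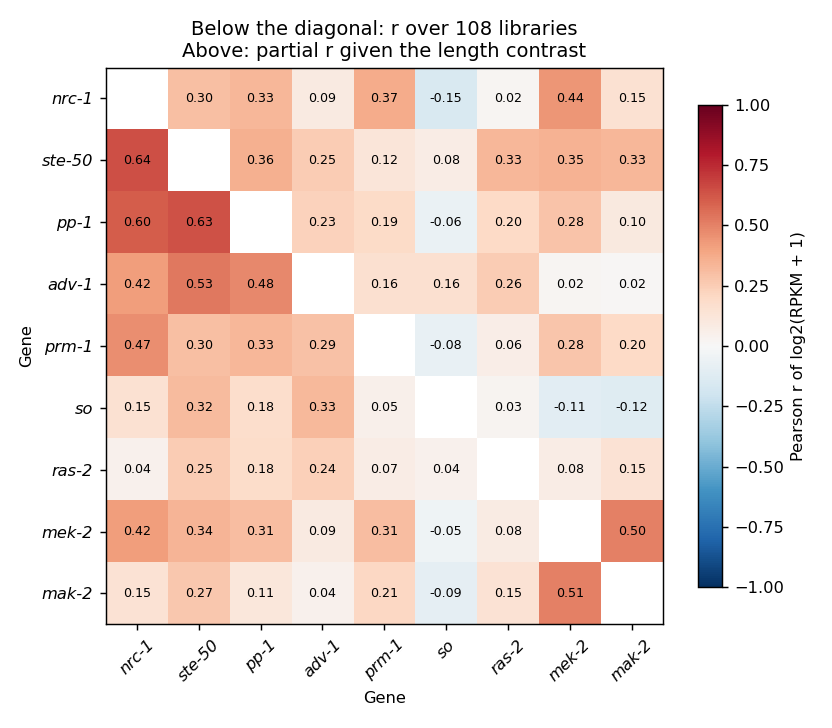
Pearson's r of log2(RPKM + 1) over 108 libraries for each pair of the 9 genes (below the diagonal) and the partial r given the length contrast (above it), on a colour scale from -1 to 1. The block of *nrc-1*, *ste-50* and *pp-1* at 0.60 to 0.64 falls to 0.30 to 0.36 above the diagonal, while *mek-2* and *mak-2* keep 0.50 to 0.51.

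The genes of the 2 lower kinases were also correlated. *mek-2* and *mak-2* had r = 0.51 (rho = 0.35, permutation p = 1e-05, adjusted p = 4.5e-05), and 0.50 given the length contrast. Among 7984 other genes *mak-2* was the 11th closest to *mek-2* and *mek-2* the 51st closest to *mak-2*, with all libraries included. The value rested in part on 1693 and 2489, which were lowest for both genes: without them r was 0.35. It was 0.29 within JW and 0.75 within D or numbered libraries, to which both strains belong, and the difference between the 2 series was not tested. The third kinase gene, *nrc-1*, had r = 0.42 with *mek-2* (adjusted permutation p = 4.5e-05), which was 0.58 within JW and 0.14 within D or numbered libraries, and r = 0.15 with *mak-2* (adjusted permutation p = 0.178). Without 2489, in which *nrc-1* was high and *mak-2* lowest, the *nrc-1* and *mak-2* value was 0.28 and passed the threshold (adjusted permutation p = 0.0071). *mek-2* also passed with *ste-50* (0.34) and *pp-1* (0.31), and *mak-2* with *ste-50* (0.27), all 3 also given the length contrast (0.35, 0.28 and 0.33). Within JW these 3 pairs had an r of 0.40, 0.45 and 0.28, and within D or numbered libraries 0.27, 0.09 and 0.29.

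**Figure D5:**
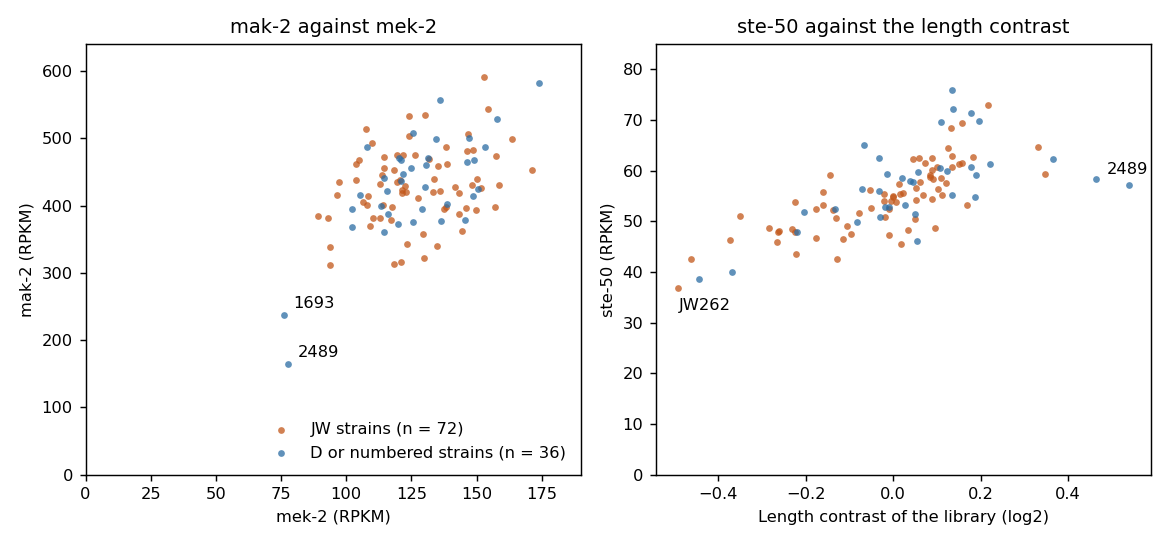
Left, *mak-2* against *mek-2* in RPKM, 1 point per library (JW, n = 72, and D or numbered, n = 36), with strains 1693 and 2489 apart at the lower left. Right, *ste-50* in RPKM against the length contrast of the library (log2), rising between JW262 at the lowest contrast (36.8 RPKM) and the libraries of higher contrast.

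*prm-1* correlated with *nrc-1* (r = 0.47, adjusted permutation p = 4.5e-05), *pp-1* (0.33), *mek-2* (0.31), *ste-50* (0.30) and *adv-1* (0.29). Within JW these values were 0.60, 0.43, 0.45, 0.50 and 0.48, and within D or numbered libraries they were 0.21, 0.14, 0.04, -0.04 and -0.15. Given the length contrast, *nrc-1* (0.37) and *mek-2* (0.28) still passed with *prm-1*, while *pp-1* (0.19), *ste-50* (0.12) and *adv-1* (0.16) did not, and *ste-50* and *adv-1* did not after median centring either. Whether the 2 series differ was not tested, and the D or numbered libraries include 4494 with its high *prm-1*. *so* passed the threshold with *adv-1* (0.33) and *ste-50* (0.32) alone, and neither passed given the length contrast (0.16 and 0.08). *ras-2* passed with *ste-50* (0.25) and *adv-1* (0.24), and given the length contrast it had 0.33 and 0.26 with these, both past the threshold, though neither passed after median centring (0.11 and 0.12). With the kinase genes *ras-2* had an r of 0.04 to 0.15, none past the threshold. Of the 20 pairs, 18 had an r above 0 in both strain series.

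For each member the 3 genes with the largest r over the 108 libraries were taken, of 7984 others. The gene most like *nrc-1* was NCU06362 (r = 0.83, and 0.85 within JW and 0.76 within D or numbered libraries), which the study describes as a GTPase activating protein and followed up for germling communication. It stayed first given the length contrast (partial r = 0.76). NCU04767 (0.79) and NCU08132 (0.79) came next. For *ste-50* these were *os-1* (NCU02815), the histidine kinase of the osmosensing pathway (r = 0.84), *rgf1* (NCU00668, 0.82) and NCU09898 (0.81), of which *os-1* had a partial r of 0.66. For *pp-1* they were NCU08132 (0.73), *qa-1S* (NCU06027, 0.73) and *os-1* (0.72). Given the length contrast, their partial r with *pp-1* was 0.55, 0.51 and 0.51, at places 5, 12 and 14. For *adv-1* they were NCU03132 (0.72), NCU09307 (0.71) and *mek-1* (NCU06419, 0.69), which encodes the MAP kinase kinase of the cell wall integrity pathway.

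The lower kinases had other neighbours. *mek-2* was most like *act* (NCU04173), which encodes actin (r = 0.64), and *pef-1* (NCU02738, 0.57) was also among its 3 nearest genes. *mak-2* was most like *rgb-1* (NCU09377), a regulatory subunit gene of protein phosphatase 2A (r = 0.81), *cnb-1* (NCU03833), the calcineurin regulatory subunit gene (0.74), and *aab-1* (NCU00116), a CCAAT-binding factor subunit gene (0.71). All 3 had their lowest level in 2489 and their second lowest in 1693, as *mak-2* had. *rgb-1* had 97.7 RPKM in 2489 and 108 RPKM in 1693, against a median of 197 RPKM. *cnb-1* had 169 and 230 RPKM in these strains, against a median of 441 RPKM. Without these 2 libraries the r values with *mak-2* were 0.67, 0.55 and 0.49.

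*ras-2* was most like *cse-1* (NCU04379), the neuronal calcium sensor homolog that the study mapped as a locus of germling communication, with r = 0.52. It was 0.42 within JW and 0.66 within D or numbered libraries, 0.53 given the length contrast and 0.45 without 2489 and 4465, in which *ras-2* was most distant from its median. Strain 2489 had the lowest level of both genes, 50.5 RPKM of *ras-2* and 123 RPKM of *cse-1*. NCU06410 (0.44) and NCU06882 (0.43) came next. The genes most like *so* were NCU04290 (0.49), NCU03567 (0.48) and NCU02828 (0.47), and those most like *prm-1* were NCU02246 (0.60), NCU05798 (0.60) and NCU07388 (0.59). The last 2 also had their highest level in 4494. Given the length contrast, the 3 genes named for *so* stood at places 16, 2 and 35. Of the 27 places, 11 were kept among the first 3 given the length contrast. These genes were picked as the largest of many values, so their r carries no p.

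Genes of 4 other lists around the pathway did not pass the test in either comparison. Of all genes, 0.0% of 7966 passed for poor minus avid and 2.24% of 7985 for JW minus D or numbered. Of 12 cell fusion genes, 12 were tested and 0 passed, with a median difference of -0.07 for poor minus avid and -0.02 for JW minus D or numbered, beside -0.03 and -0.003 over all genes. The largest difference was that of *ham-7* (NCU00881), which encodes a cell surface protein needed for fusion. It had 115.7, 320 and 611 RPKM (lowest, median and highest) in poorly communicating strains, against 107, 988 and 2448 RPKM in avidly communicating strains, a difference of -1.52 ± 0.54 (SE, 95% confidence interval -2.63 to -0.40, limma adjusted p = 0.9999). Before adjustment it was the only one of the 32 tested genes of the 4 lists under 0.05 in this comparison (limma p = 0.0098). Of all 7966 genes tested, 4.02% were under 0.05, so 1 such gene is no more than that share. The ranges overlapped, with all poor libraries below the avid median. *ham-12* (NCU00939) had a difference of -0.58 and *ham-3* (NCU08741) of -0.18, both of unadjusted p above 0.05. In JW minus D or numbered, *ham-2* (NCU03727) had -0.14 (limma adjusted p = 0.196), *ham-9* (NCU07389) 0.16 and *mob-3* (NCU07674) 0.04. Of the 4 lists, *ham-2* and *mek-1* alone had an unadjusted limma p under 0.05 there, beside 18.9% of all genes.

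Of the 6 genes of the MAK-1 and OS kinase cascades, 5 were tested and 0 passed; *mak-1* has no row. *os-5* (NCU00587), *os-4* (NCU03071) and *mik-1* (NCU02234) had differences of -0.12, -0.19 and 0.11 for poor minus avid. *mek-1* had 94.6 RPKM (median) in JW libraries and 86.2 RPKM in D or numbered libraries, a difference of 0.17 (limma adjusted p = 0.122). *os-2* (NCU07024) and *os-4* had 0.11 and -0.05 there. Of 9 small GTPase and oxidase genes, 9 were tested and 0 passed, with the oxidase regulator gene *nor-1* (NCU07850) at -0.15, *stk-4* (NCU03894) at 0.13 and *cdc-24* (NCU06067) at -0.09 for poor minus avid. *stk-4* and *cla-4* (NCU00406) had 0.09 and -0.06 for JW minus D or numbered. Of 9 pheromone and G protein genes, 6 were tested and 0 passed; the pheromone gene *ccg-4* and the receptor gene *pre-2* fell under a mean of 1 RPKM and *mfa-1* has no row. The receptor gene *pre-1* (NCU00138) had a median of 2.13 RPKM in poorly and 1.37 RPKM in avidly communicating strains (difference 0.20), and the G protein alpha subunit genes *gna-3* (NCU05206) and *gna-1* (NCU06493) had -0.16 and -0.08. In JW minus D or numbered, *pre-1*, *gna-2* (NCU06729) and *gng-1* (NCU00041) had 0.10, 0.09 and 0.04. The summed level of the 9 conidiation markers was 605, 2344 and 10370 RPKM (lowest, median and highest) in poorly communicating strains, against 631, 3785 and 125600 RPKM in avidly communicating strains. They had a median difference of -0.83 for poor minus avid and -0.33 for JW minus D or numbered, and 0 passed. For JW minus D or numbered, 3 of the 9 markers had an unadjusted limma p under 0.05, beside 18.9% of all genes. For poor minus avid it was 0 of 9, beside 4.02%. The summed level had an r of 0.28 with *ste-50* and 0.26 with *mak-2* and of -0.09 to 0.17 with the others.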

How the data were processed

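The values are the RPKM that the authors deposited in 1 table of 9733 genes and 112 strains, reads scaled by gene length and library size, with no further scaling stated. The submitters' processing notes name Bowtie 0.12.2. The counting tool was not given in the sources used here, nor was the annotation release. Integer read numbers (whole reads) were recovered from the RPKM steps (within 0.001, for 100% of the 9696 genes above 0), and 99.9% of the implied gene lengths were multiples of 3, so they appear to be coding lengths. The table held 0 columns that were not used.

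The main test was limma 3.58.1 in R 4.3.3 on log2(RPKM + 1), with an intensity trend. Genes averaging 1 RPKM or more entered, and calls used Benjamini-Hochberg adjusted p-values under 0.05. A fold change on this scale understates that of low genes. Differences of single genes were also tested by two-sided permutation of the libraries, and voom ran on the recovered reads. Classes follow the study's rule, poor being more than 1 SD below the mean frequency, applied here to the mean frequencies it lists. Alternatives were pseudocounts of 0.1 and 5 RPKM, other filters, median centring, quantile normalization, covariates and left-out strains. The length contrast, and leaving out JW262 or the 5 libraries standing apart, were added after the data were seen. The recovery and limma were tested on simulated data. Other steps used numpy 2.4.6 and scipy 1.17.1, and tables and plots used pandas 2.3.3 and matplotlib 3.10.9, all under Python 3.11.15.

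The genes, lists and tests were chosen with earlier results of these data known. The text names all members, the 3 genes of each list with the smallest p in a comparison, the 3 genes most like each member, and each member's lowest and highest library, except 1 gene that is not reported here. Gene names come from the study, common usage or RefSeq's annotation of assembly NC12, in which 8914 IDs matched. It lists *ste-50* as ty-1 and *ras-2* as smco-7, and con-8 was read under its older number. P-values of the comparisons rest on the spread between libraries, which joins that of strains, cultures and library preparation. Those of the correlations come from permuting libraries.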

Additional observations from a re-analysis of the deposited data

How the results depend on the processing

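No member passed the test under any of 21 alternatives for poor minus avid or 13 for JW minus D or numbered, and the smallest adjusted p of a member was 0.144 (*so*, JW minus D or numbered). The count over all genes for poor minus avid was 0 under each alternative except leaving out poor strains in turn, where it was 0 to 1: without JW196, NCU09179, named after its value was seen, was higher in poor strains. For JW minus D or numbered, 179 genes became 330 with quantile normalization (127 higher, 203 lower), 31 with the log2 library total as covariate (8 and 23), 108 with voom (27 and 81), 289 with each column its own library and 356 without JW168, JW5 and JW7 (221 and 135). With the length contrast as covariate 105 were higher and 41 lower. The cause was not tested.

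Of 306 values of members under alternatives, 27 changed sign, all of them in uncalled differences near 0. For poor minus avid, *nrc-1* had 0.034 with median centring, 0.029 with quantile normalization, 0.013 without 2489, 0.015 per 10 percentage points of lower frequency and -0.10 to 0.14 leaving out poor strains in turn. *mek-2* had 0.0055 with median centring, 0.024 with the library total as covariate and 0.0080 by frequency, and *pp-1* 0.010 by frequency. *mak-2* had -0.0044 with each column its own library, -0.0040 without the 5 libraries standing apart, -0.077 without 2489, -0.070 in JW alone, -0.056 with the series as covariate and -0.056 to 0.062 leaving out poor strains in turn, where *adv-1* had -0.064 to 0.19. For JW minus D or numbered, *mek-2* had -0.0098 with quantile normalization, -0.0012 without the 5 libraries, -0.015 without 2489 and -0.0035 without JW168, JW5 and JW7, the last of which gave 0.014 for *ras-2*. *mak-2* had -0.0078 with quantile normalization and -0.021 without 2489, and *adv-1* -0.0034 without the 5 libraries.

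Of the 20 pairs past the threshold, 6 lost it with median centring and 6 given the length contrast, and none did under the other 5 alternatives for r. The median SD of the members was 0.27 to 0.30 under 4 alternatives, beside 0.29. No paired analysis was possible because each strain was sequenced once and the labels give no replicate numbers that the groups share.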

Other observations

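Among 32 expressed genes of the 4 lists, those closest to 8 of the members by r were picked after their values were seen and are given as a description. *nrc-1* was closest to *mik-1*, the MAP kinase kinase kinase gene of the cell wall integrity pathway (r = 0.74 over 108 libraries), and *adv-1* to *mek-1*, the next kinase gene of that pathway (0.69). *ste-50* and *pp-1* were both closest to *ham-10* (0.75 and 0.65), *so* to *ham-8* (0.47), *prm-1* to *nor-1* (0.47), *ras-2* to *gna-3* (0.43) and *mak-2* to *cdc-42* (0.35). Given the length contrast these became 0.48 for *mik-1*, 0.58 for *mek-1*, 0.42 and 0.35 for *ham-10*, 0.35 for *ham-8*, 0.39 for *nor-1*, 0.47 for *gna-3* and 0.34 for *cdc-42*. *cdc-42* was only the 326th closest of all genes to *mak-2*, with r = 0.11 within JW and 0.56 within D or numbered libraries. Given the length contrast, the *gna-3* and *cdc-42* values moved by less than 0.05, while *ham-10*, which itself had r = 0.81 with the length contrast, moved most.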
